A study of Mus musculus with 38 samples.

Results

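The genes described here are Clec4e, Clec4d, Gpr84, Fpr1, Fpr2, Spib and Cd69, 7 of the 45706 genes counted in both deposited tables, found by their Ensembl identifiers. Most of them code for receptors of myeloid cells, and they were chosen by their measured expression in these same libraries, that is by their responses to the stimuli and by lower levels in RelA mutant cells. Their responses and genotype differences are therefore given as a description with no test, and tests are kept for the untreated cells and for LPS against Poly(I:C). Those tests use libraries that also entered the choice, so they are not independent of it. The description "RelA-dependent" held for the whole set under none of the stimuli. Clec4e and Gpr84 were lower in the mutant after LPS and Poly(I:C) and early after TNF. Spib was lower at 3 and 8 h of each agent, and Clec4d was at most 1.34-fold lower after any agent. After 8 h of TNF, Clec4e and Gpr84 were not lower in the mutant in CPM. Relative to macrophage markers, Gpr84 was lower there.

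The study measured poly(A) RNA in primary embryonic fibroblasts of C57BL/6 mice, either WT or homozygous for RelA-TA-KI, a knock-in at the gene of the NF-kappaB subunit RelA. The cells were starved of serum overnight and harvested either without treatment or after 0.5, 1, 3 or 8 h with 1 of 3 agents. These were the cytokine TNF at 10 ng/ml, the bacterial lipopolysaccharide LPS at 100 ng/ml, and at 20 ug/ml the synthetic double-stranded RNA Poly(I:C). One table holds the TNF course, with 2 libraries in each of 10 groups, and the other holds LPS and Poly(I:C), with 1 library in each of 18 groups and 1 untreated library per genotype for both agents. The labels do not say whether replicates came from separate embryos or cultures. For TNF, p-values therefore measure the spread between these libraries, which may be technical. For LPS and Poly(I:C), with no replicates, they measure how much a difference varied over conditions. The labels also do not say how many embryos or cultures stand behind each genotype.

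NF-kappaB is a family of dimeric transcription factors held in the cytoplasm by inhibitor proteins and released within minutes when TNF, LPS or double-stranded RNA is sensed. RelA is the subunit that carries a strong transactivation region. In phagocytes, Clec4e (Mincle) and Clec4d (MCL) are C-type lectins that recognise mycobacterial glycolipids and signal through an adaptor carrying an ITAM, the motif to which the kinase Syk binds. Gpr84 is a G protein-coupled receptor for medium-chain fatty acids, and Fpr1 and Fpr2 are receptors for formylated bacterial peptides that guide phagocytes. Spib is an Ets transcription factor related to PU.1 and known mainly from B cells and plasmacytoid dendritic cells. Cd69 is a lectin-like membrane protein that appears early on activated leukocytes and holds back the sphingosine phosphate receptor S1pr1.

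Clec4d (ENSMUSG00000030144.2, chr6:123262107-123275268, plus strand) and Clec4e (ENSMUSG00000030142.8, chr6:123281789-123289870, minus strand) are neighbours, 6520 bases apart on mouse build mm10. Cd69 (ENSMUSG00000030156.3) lies on the same chromosome at chr6:129267324-129275369, minus strand. Fpr1 (ENSMUSG00000045551.7, chr17:17876471-17883940, minus strand) and Fpr2 (ENSMUSG00000052270.7, chr17:17887824-17893952, plus strand) are 3883 bases apart. Gpr84 (ENSMUSG00000063234.4) lies at chr15:103308236-103310438, minus strand, and Spib (ENSMUSG00000008193.11) at chr7:44525995-44532071, minus strand. All counts are over the exons of these genes.

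The upstream sequences of Clec4e, Gpr84 and Spib are shown because their letters differed. All 3 genes were lower in the mutant at 3 and 8 h of LPS and Poly(I:C). At 8 h of TNF Spib alone of the 3 was lower. The sequences come from RefSeq on GRCm38.p6, read 5′ to 3′ along the gene and ending at the base before its start. The windows are chr6:123289872-123290121 (minus strand) for Clec4e, chr15:103310439-103310688 (minus strand) for Gpr84 and chr7:44532072-44532321 (minus strand) for Spib. Capitals mark matches to the kappaB consensus (searched by its name), TGANTCA (AP-1), GAGGAA (PU.1 core), TTGCNNAA (C/EBP) and the TATA box letters TATAAA, on both strands.
Clec4e: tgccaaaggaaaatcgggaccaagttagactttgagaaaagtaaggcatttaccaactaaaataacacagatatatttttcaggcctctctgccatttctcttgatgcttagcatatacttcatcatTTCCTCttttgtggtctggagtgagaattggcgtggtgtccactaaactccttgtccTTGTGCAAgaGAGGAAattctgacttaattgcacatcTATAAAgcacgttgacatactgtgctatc
Gpr84: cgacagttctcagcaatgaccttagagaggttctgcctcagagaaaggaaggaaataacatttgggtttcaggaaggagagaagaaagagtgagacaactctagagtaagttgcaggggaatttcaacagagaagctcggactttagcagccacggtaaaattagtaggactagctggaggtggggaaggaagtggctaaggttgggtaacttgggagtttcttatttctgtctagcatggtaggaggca
Spib: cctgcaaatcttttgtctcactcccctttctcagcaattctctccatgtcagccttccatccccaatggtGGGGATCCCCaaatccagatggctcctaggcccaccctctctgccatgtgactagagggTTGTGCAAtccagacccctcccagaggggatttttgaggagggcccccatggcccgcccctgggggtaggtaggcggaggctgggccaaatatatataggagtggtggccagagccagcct
In windows of 250 bases before to 50 after each start, 6 of the 7 genes had a sequence. The kappaB consensus matched in Spib alone of the 6, as GGGGATCCCC at -180 to -171, where both strands match, and in 4.51% of all 32851 windows. A looser kappaB pattern, GGG and CC with 5 free bases between them, contains the consensus and also matched in Spib alone of the 6, against 50.8% of all windows. Clec4e held TTGTGCAA at -66 to -59, a match to TTGCNNAA on the opposite strand, which 10.8% of windows have, and Spib held the same letters at -121 to -114. Clec4e had TATAAA at -29 to -24 (13.6% of windows) and GAGGAA on each strand, and the PU.1 core (28.3% of windows) also occurred in Clec4d and Fpr2. TGANTCA (7.81% of windows) occurred in none of the 6, and the Gpr84 window held no match to any of these motifs. A match is a description of letters and no measured binding.

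Libraries held 6715022 to 9590932 counts in the TNF table and 7021799 to 9431334 in the other. Levels are CPM, that is counts scaled to the same effective library size, the total corrected by the TMM method. A count of 0 allows up to 3 counts, which is 0.269 to 0.515 CPM depending on the library, and this limit and all intervals below cover counting error only. Rela itself was at 71.8 to 163 CPM in WT and 67.1 to 128 CPM in mutant libraries of the TNF table, so the knock-in cells still made the transcript. Fibroblast markers summed to 33960 CPM or more in every library. Every library also held macrophage transcripts. The 16 markers (Adgre1, Csf1r, Lyz2 and others) summed to 1168 to 2435 CPM in WT and 1324 to 4853 CPM in mutant libraries of the TNF table, and to 4758 to 6726 and 3949 to 7275 CPM in the other. Cd163, a marker of resident macrophages, was at 0 in 19 of the 20 libraries of the TNF table. In bulk RNA, fewer cells of a type and less RNA per cell cannot be told apart.

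Clec4e was lower in the mutant early after TNF, and at 8 h the genotypes overlapped. The untreated WT libraries stood at 0.724 and 0.604 CPM, followed by 2.56 and 2.63 CPM at 0.5 h, 8.00 and 11.3 at 1 h, 13.99 and 26.4 at 3 h, and 31.6 and 59.9 at 8 h. Mutant libraries were at 0.368 and 0.579 CPM untreated, 0.375 and 0.439 at 0.5 h, 0.843 and 1.58 at 1 h, 7.72 and 20.3 at 3 h, and 53.0 and 159.8 at 8 h. Untreated and at 0.5 and 1 h both mutant libraries lay below both WT libraries, at 3 and 8 h the genotypes overlapped, and at 8 h the highest library was mutant. The mutant level was 8.00-fold lower at 1 h (95% counting interval 5.00 to 13.4) and 2.38-fold higher at 8 h (2.19 to 2.60), and the fitted difference at 8 h was 1.22 on the log2 scale (SE 0.44). That difference was 0.21 without mutant 8 h replicate 2, the library with the highest macrophage marker sum, and per 1000 CPM of those markers Clec4e was 20.5 and 24.6 in WT and 20.9 and 32.9 in the mutant. Within the mutant, the fitted step from 1 to 3 h was 3.53 on the log2 scale (SE 0.79) and that from 3 to 8 h 2.92 (SE 0.49). In WT the same steps were 1.09 (SE 0.54) and 1.16 (SE 0.48). These steps belong to the responses by which the genes were chosen and carry no test.

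Under LPS and Poly(I:C) the Clec4e deficit lasted to 8 h. WT libraries given LPS went from 1.43 CPM untreated to 39.4, 99.1, 377 and 628 CPM at 0.5, 1, 3 and 8 h. The mutant libraries stood at 0.587, 3.50, 7.93, 25.6 and 57.0 CPM at the same times. The ratio of WT to mutant was 11.3 at 0.5 h (7.87 to 16.6), 14.7 at 3 h (12.7 to 17.3) and 11 at 8 h (9.90 to 12.3), so levels were higher at each later time in both genotypes while the gap varied little. Poly(I:C) gave 1.29, 14.5, 96.6 and 297 CPM in WT and 0.592, 1.46, 10.3 and 43.5 CPM in the mutant. The gap at 8 h was 6.80-fold (6.02 to 7.75). Over the 9 conditions of this table, the fitted difference of mutant minus WT was -3.32 on the log2 scale (SE 0.17). There is 1 library for each genotype and condition, so no single condition has a replicate check.

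In CPM, Gpr84 was lower in the mutant from 0.5 to 3 h of TNF and at the WT level at 8 h. WT libraries were at 0.579 and 1.61 CPM untreated, 3.24 and 3.94 at 0.5 h, 7.11 and 5.20 at 1 h, 12.4 and 26.7 at 3 h, and 40.9 and 69.0 at 8 h. The mutant stood at 0.613 and 1.16 CPM untreated, 0.500 and 1.10 at 0.5 h, 0.602 and 1.33 at 1 h, 6.16 and 9.02 at 3 h, and 39.9 and 73.8 at 8 h. Mutant libraries lay below WT at 0.5, 1 and 3 h, and at 8 h the 2 genotypes spanned nearly the same range. The deficit was 6.37-fold at 1 h (3.72 to 11.5) and 2.70-fold at 3 h (2.20 to 3.33), and the fitted difference at 8 h was 0.05 on the log2 scale (SE 0.34). Leaving out 1 library gave -0.46 (without mutant 8 h replicate 2) to 0.48 (without WT 8 h replicate 2) for the latter. Per 1000 CPM of macrophage markers, Gpr84 at 8 h was 26.6 and 28.4 in WT and 15.8 and 15.2 in the mutant. The fitted steps from 1 to 3 h and from 3 to 8 h were 2.96 (SE 0.65) and 2.90 (SE 0.40) in the mutant, against 1.69 (SE 0.43) and 1.47 (SE 0.36) in WT.

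Under LPS, Gpr84 in WT went from 1.70 CPM to 11.6, 31.9, 86.6 and 172 CPM. Mutant libraries stood at 0.489, 0.954, 2.16, 6.00 and 22.1 CPM. That is a gap of 14.4-fold at 3 h (10.5 to 20.2) and 7.81-fold at 8 h (6.54 to 9.35). With Poly(I:C) WT was at 1.69, 10.7, 40.4 and 103 CPM and the mutant at 0.395, 0.786, 6.49 and 24.0 CPM, a gap of 13.6-fold at 1 h (6.33 to 35.0) and 4.27-fold at 8 h (3.58 to 5.13). The mutant was also lower untreated in this table (5 counts against 19), where Clec4e had 6 counts against 16. The difference over the 9 conditions was -3.00 on the log2 scale (SE 0.20).

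**Figure D1:**
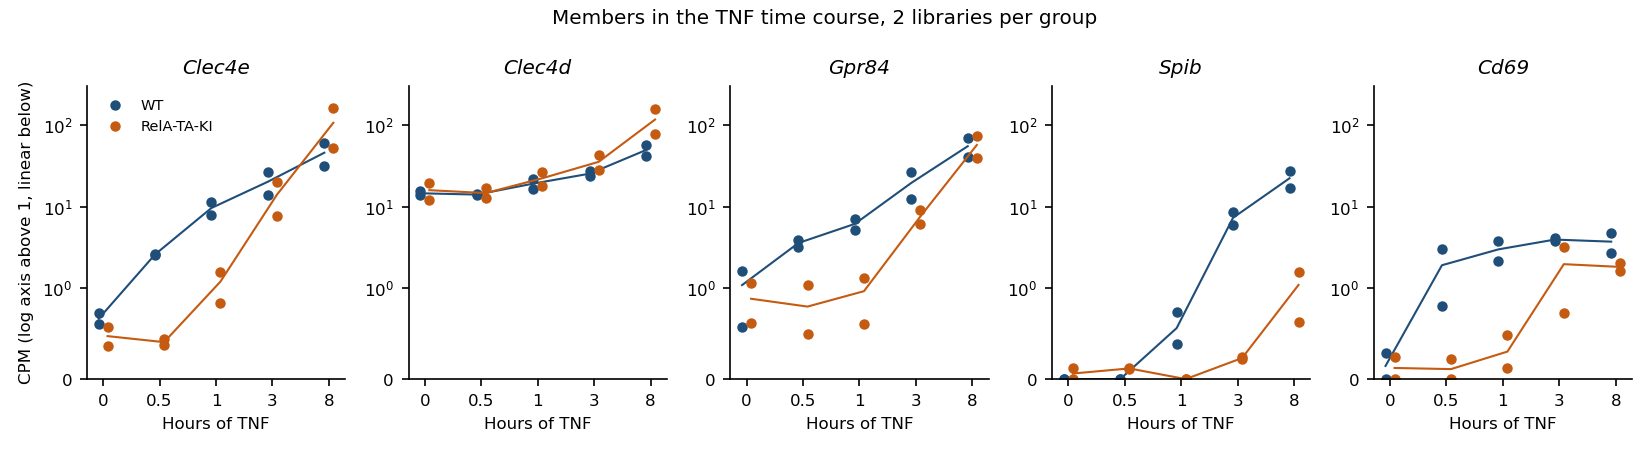
CPM of 5 genes in each TNF library (y axis, logarithmic above 1 CPM and linear below) against hours of TNF (x axis, evenly spaced), with WT in blue and RelA-TA-KI in orange. Points are the 2 libraries of a group and lines join group means. Clec4e and Gpr84 stayed near 1 CPM in the mutant until 1 h and reached the WT range or more at 8 h, and Spib did not.

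Clec4d, the partner and neighbour of Clec4e, went against the label. It was present untreated, at 13.8 and 15.4 CPM in WT and 12.1 and 19.7 CPM in the mutant libraries of the TNF table. After TNF the WT libraries were at 13.9 and 14.2 CPM at 0.5 h, 16.3 and 22.0 at 1 h, 23.4 and 27.3 at 3 h, and 41.6 and 57.1 at 8 h. Mutant libraries were at 12.6 and 16.7, 17.7 and 26.8, 27.9 and 42.9, and 77.7 and 155.4 CPM at the same times, above both WT libraries at 3 and 8 h. The mutant level at 8 h was 2.40-fold that of WT (2.21 to 2.61), and the macrophage marker sum was also higher there. Per 1000 CPM of those markers Clec4d was 27.0 and 23.4 in WT and 30.7 and 32.0 in the mutant. The fitted difference at 8 h was 1.24 on the log2 scale (SE 0.30), and 0.66 without mutant 8 h replicate 2. The step from 3 to 8 h was 1.72 in the mutant (SE 0.31) and 0.96 in WT (SE 0.32), and that from 1 to 3 h 0.67 (SE 0.33) and 0.41 (SE 0.35).

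LPS took Clec4d in WT from 20.4 CPM to 30.2, 48.6, 98.5 and 113 CPM. The mutant libraries stood at 22.1, 25.8, 55.8, 78.7 and 84.2 CPM, and Poly(I:C) at 8 h gave 65.5 CPM in WT and 57.8 CPM in the mutant. The ratio of mutant to WT was between 0.746 (LPS 8 h, 0.664 to 0.838) and 1.15 (LPS 1 h, 1.01 to 1.31) over the 9 conditions. The fitted difference over them was -0.11 on the log2 scale (SE 0.07).

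Fpr1 and Fpr2, the other neighbouring pair, were low under TNF and highest at 8 h of LPS. No TNF library held more than 18 counts of Fpr1 or 9 of Fpr2, and those highest values were both in mutant 8 h replicate 2. With LPS, Fpr1 in WT had 0 counts at 0.5 h, 3 at 1 h, 64 at 3 h and 340 at 8 h (58.4 CPM), and the mutant had 1, 2, 11 and 88 (14.1 CPM). Fpr2 had 1, 2, 55 and 165 counts in WT (28.3 CPM at 8 h) and 1, 0, 11 and 82 in the mutant (13.1 CPM). The mutant was thus 4.15-fold lower for Fpr1 (3.28 to 5.32) and 2.16-fold lower for Fpr2 (1.65 to 2.86) at 8 h of LPS. With Poly(I:C) at 8 h Fpr1 had 24 counts in WT and 7 in the mutant, whereas Fpr2 had 57 and 51 (8.40 and 8.01 CPM), a ratio of mutant to WT of 0.953 (0.640 to 1.42). Neither gene passed the filter on low counts in any model.

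Spib, the transcription factor of the set, was lower in the mutant at 3 and 8 h of TNF, whereas at 0.5 h no library held more than 1 count. WT libraries held 0 counts untreated and at 0.5 h, 3 and 6 counts at 1 h, 41 and 80 at 3 h (6.04 and 8.59 CPM), and 133 and 219 at 8 h (17.0 and 27.5 CPM). Mutant libraries held 1 and 0 counts untreated, 1 and 1 at 0.5 h, 0 and 0 at 1 h, 2 and 2 at 3 h, and 5 and 14 at 8 h (0.628 and 1.57 CPM). The groups did not overlap at 1, 3 or 8 h. The WT level was 32.5-fold higher at 3 h (12.3 to 121.0) and 19.8-fold higher at 8 h (12.5 to 33.2). Against the untreated WT libraries, taken at the limit of 3 counts over both, WT Spib was at least 125-fold higher at 8 h. The fitted steps in WT were 3.67 on the log2 scale from 1 to 3 h (SE 0.49) and 1.59 from 3 to 8 h (SE 0.32), and the mutant step from 3 to 8 h was 2.20 (SE 0.75).

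Spib was lower under LPS than under TNF in WT at 3 and 8 h. The tables are separate and were normalized separately, so agent and table cannot be told apart. WT libraries held 31 counts at 3 h and 28 at 8 h of LPS (4.74 and 4.81 CPM), against 2 and 5 in the mutant, and at 0.5 and 1 h no library of either genotype held more than 1 count. Poly(I:C) gave 18 and 57 counts in WT (2.29 and 8.40 CPM) and 1 and 0 in the mutant. The WT level was 16.6-fold higher at 3 h of LPS, with a wide interval (4.22 to 143.0), and at least 17.8-fold higher at 8 h of Poly(I:C).

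Cd69 differed from the others in its shape, with a peak at 3 h of LPS and Poly(I:C). Under TNF it stayed low, with WT at 0.810 and 3.02 CPM at 0.5 h, 2.16 and 3.84 at 1 h, 3.83 and 4.08 at 3 h, and 2.69 and 4.77 at 8 h. The mutant was at 0 and 0.220, 0.120 and 0.485, 0.724 and 3.23, and 1.63 and 2.02 CPM, below WT without overlap at each of these 4 times. Untreated WT libraries had 2 and 0 counts and so had the mutant ones. In WT, LPS took Cd69 from 0.627 CPM to 6.33, 13.5, 486 and 94.0 CPM, whereas mutant libraries stood at 0.391, 0.636, 0.618, 266 and 198 CPM. The mutant was 21.9-fold lower at 1 h (9.80 to 61.0), 1.82-fold lower at 3 h (1.72 to 1.93) and 2.10-fold higher at 8 h (1.9 to 2.33). With Poly(I:C) the levels were 1.10, 7.39, 223 and 127 CPM in WT and 0.395, 1.01, 204 and 95.3 CPM in the mutant, so a gap of 7.30-fold at 1 h (3.60 to 16.8) compared with 1.09-fold at 3 h (1.02 to 1.17).

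**Figure D2:**
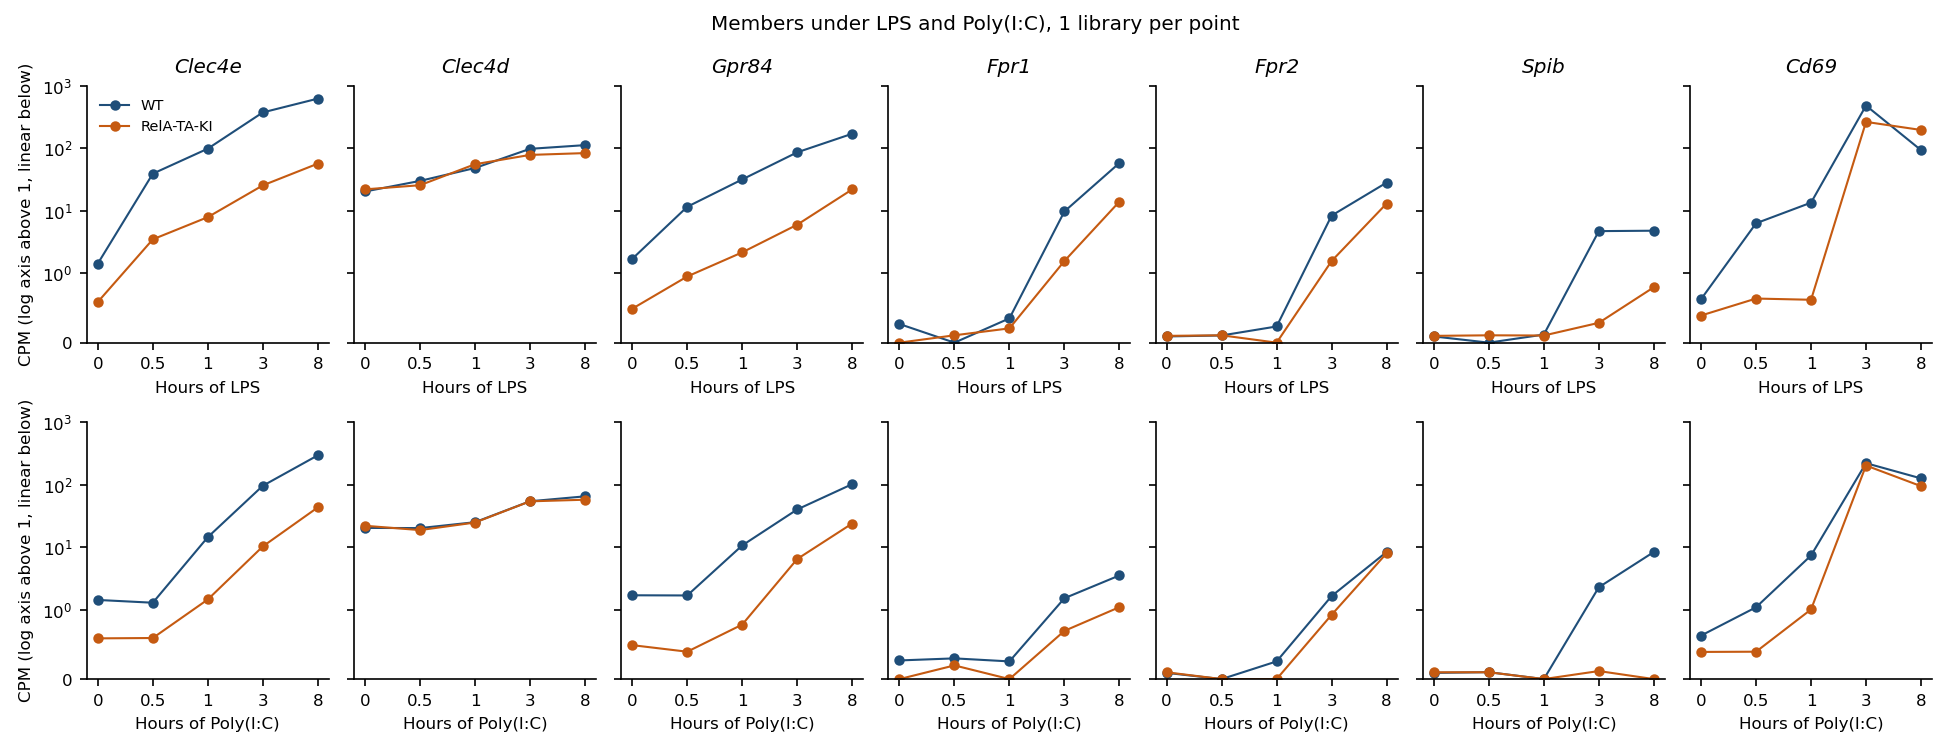
CPM of the 7 genes under LPS (top) and Poly(I:C) (bottom) against hours of treatment, on the same kind of axes, with 1 library per point. WT is blue and RelA-TA-KI orange. The Clec4e and Gpr84 curves ran apart at all times, those of Clec4d lay close together, and those of Cd69 crossed between 3 and 8 h of LPS.

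Counted over the 7 genes, mutant TNF libraries lay wholly below WT for 1 gene untreated (Clec4e), 3 at 0.5 h (Clec4e, Gpr84 and Cd69), 4 at 1 h (those and Spib), 3 at 3 h (Gpr84, Spib and Cd69) and 2 at 8 h (Spib and Cd69). The same held for 21.1%, 16.5%, 20.8%, 18.5% and 26.7% of the 17343 genes with a mean of at least 1 count. Mutant libraries lay wholly above WT for 1 gene untreated (Fpr2, with 2 counts in each mutant library against 1 and 0), 1 at 0.5 h (Spib, on 1 count in each), none at 1 h, and 1 each at 3 and 8 h (Clec4d), against 20.2%, 15.9%, 17.0%, 19.6% and 25.4% of genes. In the other table, a gene was counted as differing by size when its log2 ratio was at least 1 either way and 1 of the libraries had at least 5 CPM. The mutant was lower by this rule for 3, 3, 4 and 4 of the 7 genes at 0.5, 1, 3 and 8 h of LPS, where 1.18%, 1.92%, 3.38% and 4.97% of genes were. For Poly(I:C) it was lower for 3, 2 and 3 of them at 1, 3 and 8 h, against 1.13%, 1.26% and 3.85% of genes. Cd69 at 8 h of LPS was the 1 gene of the set that was higher, as were 4.54% of all genes. These contrasts chose the set, so the shares are printed without any reading.

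**Figure D3:**
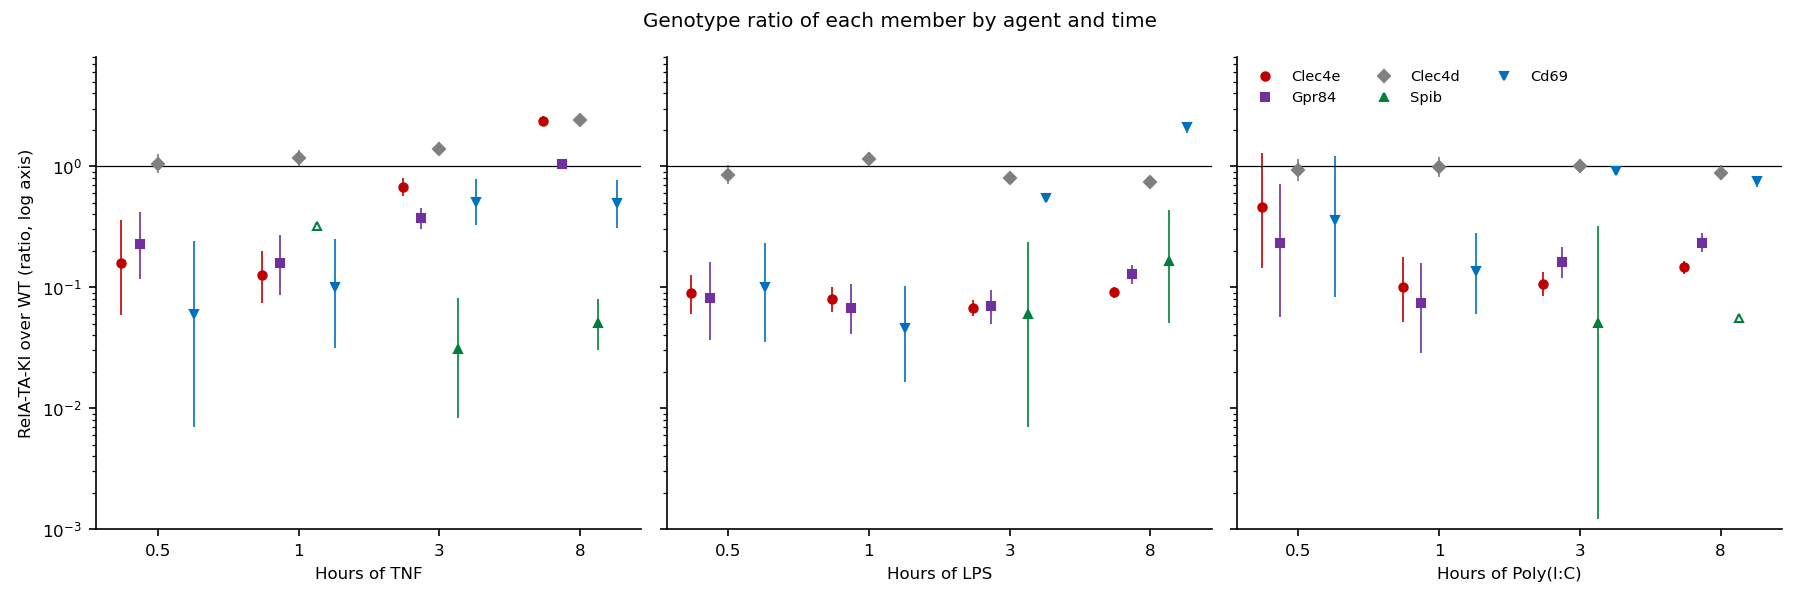
Ratio of RelA-TA-KI to WT (logarithmic y axis) for 5 genes at each time of TNF, LPS and Poly(I:C). Bars are 95% counting intervals from pooled counts, open triangles are upper bounds where the mutant had 0 counts, and the line marks equal levels. Under LPS, Clec4e and Gpr84 stayed between 0.0678 and 0.128, and under TNF they came up to 2.38 and 1.05 at 8 h.

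The genotypes were tested in untreated cells of the TNF table, and no member passed. The genes were chosen in part by lower levels in mutant cells. Untreated libraries are also the baseline of the responses that chose them, so this test is not independent of the choice. The difference of mutant minus WT was -0.44 for Clec4e (SE 1.73, adjusted p = 0.94), -0.39 for Gpr84 (SE 0.94, adjusted p = 0.89) and 0.12 for Clec4d (SE 0.37, adjusted p = 0.92), where 0.00722% of all genes passed (1 gene, and 1280 at an unadjusted p below 0.05). Clec4e and Gpr84 had 3 to 16 counts in each of these libraries, so for them the test could have missed a large difference. The test was edgeR's quasi-likelihood test with Benjamini-Hochberg adjustment over all genes.

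LPS and Poly(I:C) were compared over 8 matched pairs of genotype and time. The genes were not chosen by this contrast, but their responses in the same treated libraries entered the choice. These p-values are therefore not independent of it. With 1 library per condition, they measure how much the agent difference varied over genotypes and times, and no spread between replicates. Clec4e was higher with LPS by 1.88 on the log2 scale (SE 0.37, adjusted p = 0.031) and Clec4d by 0.73 (SE 0.08, adjusted p = 0.0033), and both were higher in 8 of the 8 pairs. Gpr84 was 0.94 higher (SE 0.26, adjusted p = 0.083) and Cd69 0.68 higher (SE 0.24, adjusted p = 0.14), and 1.93% of all genes passed as higher with LPS (2.48% in either direction). The Clec4e call was lost on leaving out the WT pair at 1 h (adjusted p = 0.089) or 3 h (0.084) or the mutant pair at 1 h (0.065) or 3 h (0.079). Gpr84 passed with DESeq2 (adjusted p = 0.0064) and with no filter on low counts (0.036), and Cd69 passed without the WT pair at 8 h (0.043). In WT the ratio of LPS to Poly(I:C) for Clec4e was 30.5 at 0.5 h (17.6 to 57.8), 6.82 at 1 h (5.60 to 8.37), 3.91 at 3 h (3.60 to 4.24) and 2.11 at 8 h (2.00 to 2.23). Gpr84 gave 6.87 at 0.5 h (4.10 to 12.2) and 1.67 at 8 h (1.52 to 1.85). Cd69 turned from 2.18 at 3 h (2.06 to 2.31) to 0.740 at 8 h (0.664 to 0.825) in WT, and stood at 1.30 and 2.07 in the mutant. At 8 h, LPS gave 16.5-fold more Fpr1 than Poly(I:C) in WT (10.9 to 26.1) and 12.8-fold more in the mutant (5.95 to 32.7). The excess for Fpr2 was 3.37-fold (2.48 to 4.64) and 1.64-fold (1.14 to 2.37), whereas Spib in WT had less with LPS at 8 h (ratio 0.572, 0.350 to 0.915).

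Of the 69 genes tested from 6 pathway lists, described further on, 15 differed between LPS and Poly(I:C), 11 higher with LPS and 4 lower, a share of 21.7% against the 2.48% of all genes. The lists were chosen with earlier results of these data known, so these shares are given without any reading. Hcar2, the receptor for niacin and ketone bodies, was higher with LPS by 3.07 on the log2 scale (SE 0.33), and Ccrl2 by 1.43 (SE 0.32), the 2 of 12 chemoattractant and metabolite receptors that passed as higher. Malt1 was the 1 of 14 adaptors and kinases (1.71, SE 0.30), and 4 of 11 activation antigens and S1P receptors passed as higher, led by Cd40 (1.57, SE 0.22). Of the transcription factors Cebpb (1.22, SE 0.26) and Ets2 (0.56, SE 0.11) were higher, and of formyl peptide and Gi signalling Pik3r5 (0.69, SE 0.14) and Anxa1 (0.40, SE 0.08). Clec7a (Dectin-1) was lower with LPS (-0.64, SE 0.11), as were Cmklr1, Cebpa and Trem2. Of the 15 macrophage markers Cd14 was higher (1.77, SE 0.14) and Csf1r lower (-0.58, SE 0.13).

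At 8 h of TNF the macrophage marker sum was higher in both mutant libraries than in the WT ones, for mutant replicate 1 by a small margin. The marker sum was 1540 and 2435 CPM in WT and 2533 and 4853 CPM in the mutant, and mutant replicate 2 was the highest of all 20 libraries. Per 1000 CPM of these markers, Clec4e at 8 h was 20.5 and 24.6 in WT and 20.9 and 32.9 in the mutant. Gpr84 was 26.6 and 28.4 in WT against 15.8 and 15.2 in the mutant on the same scale, and Clec4d 27.0 and 23.4 against 30.7 and 32.0. On this scale Gpr84 was lower in both mutant libraries at 8 h, and the Clec4e genotypes still overlapped. The scale contains Cd14 and Lyz2, which themselves rose in the mutant. Of the 15 macrophage markers tested, 2 rose in the mutant between untreated and 8 h, where 21.6% of all genes rose. They were Cd14 (2.95 on the log2 scale, SE 0.41) and Lyz2 (1.07, SE 0.35). With the replicate block within each genotype 12 rose in the mutant. In WT Cd14 rose by 1.49 (SE 0.41), the 1 marker that passed there, where 12% of all genes rose. With that block 3 rose and 1 fell in WT. The difference of the 2 responses passed for none of the 15 in edgeR's test, against 6.87% of all genes, and for 10 with that block. The block also raised the counts over all genes for the WT response and for the difference, as given further on. The marker counts are therefore printed without any reading. At 8 h of LPS the sums were alike, 6726 CPM in WT and 6407 CPM in the mutant, and Clec4e was 93.3 and 8.90 per 1000 CPM of markers. Neutrophil markers summed to at most 10.1 CPM in the TNF table and 33.7 CPM in the other, and Elane and Retnlg were at 0 in all TNF libraries. The part of macrophages in the late TNF result was not tested.

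**Figure D4:**
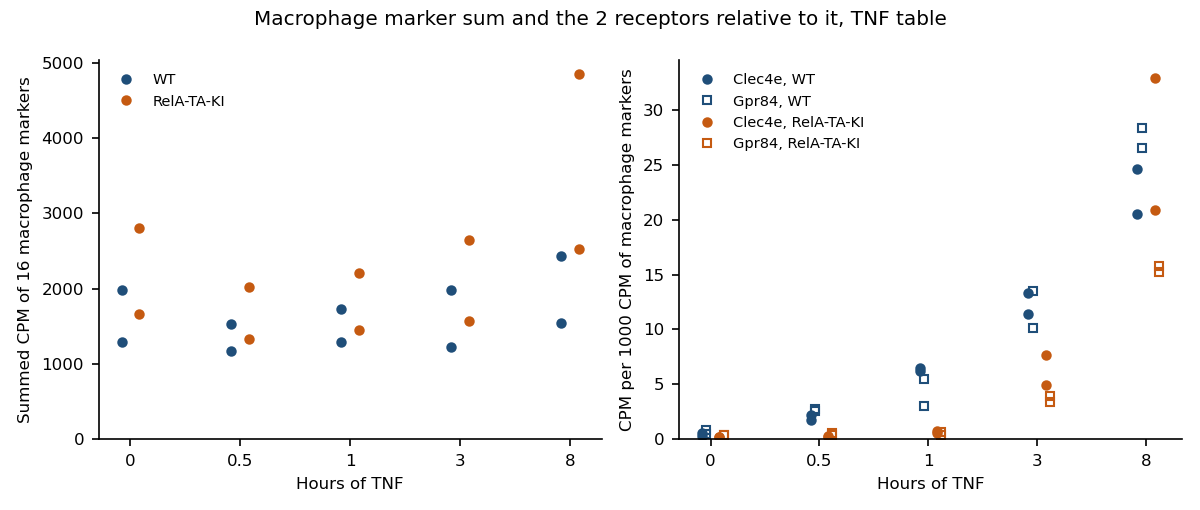
Left, summed CPM of the 16 macrophage markers in each TNF library. Right, Clec4e (filled circles) and Gpr84 (open squares) per 1000 CPM of those markers, with WT in blue and RelA-TA-KI in orange. The highest marker sum, 4853 CPM, and the highest Clec4e value, 32.9, belong to the same mutant 8 h library, whereas Gpr84 in the mutant stays at 15.2 and 15.8.

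Per kilobase of exon, the order of the genes differed between 8 h of TNF and 8 h of LPS. These agents belong to separate tables, with macrophage marker sums of 1168 to 2435 and 4758 to 6726 CPM in WT. Agent and table cannot be told apart in this order. WT libraries at 8 h of TNF averaged 36.9 CPM per kb for Clec4d, 35.5 for Gpr84, 9.21 for Clec4e, 7.83 for Spib and 2.30 for Cd69, with Fpr1 (0.527) and Fpr2 (0.293) last. At 8 h of LPS the order in WT was Clec4e (126 CPM per kb), Gpr84 (111), Clec4d (84.5), Cd69 (58.0), Fpr1 (44.1), Fpr2 (21.9) and Spib (1.69). Clec4d and Gpr84 under TNF differed by less than their 2 libraries did, and for LPS no spread is known.

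The genes whose log2 CPM ran most like that of Clec4e over the 38 libraries, each table centred on its own mean, were Tlr2 (r = 0.929), Ninj1 (0.925), Rab20 (0.920), Tnfaip2 (0.919) and Traf1 (0.911), out of 13573 genes. For Gpr84 they were Tlr2 (r = 0.936), Ninj1 (0.914), Icam1 (0.913), Acod1 (0.911) and Rrad (0.908). Clec4e and Gpr84 themselves had r = 0.976, above any of these, and Clec4e and Clec4d 0.852. Ccl9 (0.924) and Msr1 (0.917) were nearest to Clec4d, Itgal (0.931) and Cyfip1 (0.912) to Fpr1, and Slc31a2 (0.966) and Sppl2a (0.960) to Fpr2. Spib was followed most closely by Madcam1 (0.931) and Trp53 (0.931), and Cd69 by Cxcl10 (0.933) and Tifa (0.929). These libraries share agents and times, and the values carry no test.

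Other genes of these pathways were read from 6 lists, at an adjusted p below 0.05 in edgeR. Of 14 adaptors and kinases downstream of Clec4e, 3 rose in WT by 8 h of TNF (among them Bcl10 by 0.70 on the log2 scale, SE 0.06, and Prkcd by 0.44, SE 0.14) and none fell. In the mutant 6 rose, led by Malt1 (1.98, SE 0.29), the paracaspase partner of Bcl10, then Syk (1.26, SE 0.30), Bcl10 (1.01, SE 0.06) and Prkcd (0.82, SE 0.13). The medians of the list were 0.18 in WT and 0.73 in the mutant, against -0.01 and -0.02 over all genes, of which 20.8% and 42.1% passed. With the block within each genotype the counts were 6 and 12, and none fell. No share of all genes with the block stands beside these counts, so they carry no reading. The difference of the 2 responses passed for Vav3 alone of the 14 (0.75, SE 0.21, adjusted p = 0.043), where 6.87% of all genes did, and with the block 8 passed as higher and 1 as lower.

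Of the 71 genes tested from the 6 lists, 22 (31.0%) passed in WT at 8 h of TNF, against 20.8% of all genes. In the mutant 28 (39.4%) passed, against 42.1% of all genes. Of 11 other C-type lectins tested, Clec4n (Dectin-2), Clec5a and Clec2d rose in WT (by 2.34, SE 0.75, 2.01, SE 0.36, and 1.16, SE 0.22) and Mrc2 fell. In the mutant Clec4n (2.70, SE 0.66) and Clec5a (1.85, SE 0.36) rose and Mrc2 fell by 0.55 (SE 0.10). Of 13 other chemoattractant and metabolite receptors, Ccrl2 rose in both genotypes by 2.87 (SE 0.52 in each), and Ptafr, C5ar1 and Ccr1 rose in the mutant (1.53, SE 0.48, 1.4, SE 0.44, and 1.18, SE 0.45). Of 8 genes of formyl peptide and Gi signalling, Pik3r5 and Gnai3 rose in WT and in the mutant, where Anxa1, a ligand of Fpr2, rose by 0.65 (SE 0.17) and Gnb1 also rose. Of 13 Ets and other myeloid transcription factors, 4 rose and 1 fell in WT, led by Ets2 (1.24, SE 0.19) and with Cebpa lower by -1.02 (SE 0.25), and 5 rose in the mutant, led by Cebpb (1.19, SE 0.20) and Ets1 (1.14, SE 0.12). Of 12 activation antigens and S1P receptors 7 rose in WT and 6 in the mutant, where 12.0% and 21.6% of all genes rose, and Trem1, Cd40 and Cd274 led both. Cd44 and S1pr1, the receptor that Cd69 holds back, rose more in the mutant by 1.30 (SE 0.32, adjusted p = 0.027) and 1.31 (SE 0.19, adjusted p = 0.0015).

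The replicate block within each genotype moved these counts too. With it, 4 lectins rose and 3 fell in WT and 6 rose and 2 fell in the mutant, and of the chemoattractant and metabolite receptors 3 rose and 3 fell in WT and 7 rose and 1 fell in the mutant. Of the genes of formyl peptide and Gi signalling 2 rose and 2 fell in WT, and 4 rose and 1 fell in the mutant. Transcription factors gave 7 higher and 2 lower in WT and 8 higher and 2 lower in the mutant. Activation antigens and S1P receptors gave 9 and 1 in WT and 10 and 2 in the mutant. The difference of the 2 responses passed for 2 of the activation antigens and S1P receptors and for no gene of these other 4 lists. With the block it passed for 4 lectins, 5 chemoattractant and metabolite receptors and 3 genes of formyl peptide and Gi signalling. It also passed for 3 transcription factors and 4 of the activation antigens and S1P receptors. Over all 13843 genes, 4534 passed with the block for the 8 h response in WT and 2941 for the difference of responses. No such count is given for the mutant response with the block, where 42.1% of all genes passed without it. The mutant counts per list therefore have no share to be set against. All counts per list are given without any reading.

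Of the 69 list genes tested in the unreplicated table, 10 differed between genotypes over the 9 conditions (14.5%), near the share of all genes (15.9%). Of the lectins, Clec5a was lower in the mutant (-0.58, SE 0.11) as was Clec12a (-0.37, SE 0.07), and Clec1a was higher (1.76, SE 0.34). Malt1 (-0.53, SE 0.16) and Btk (-0.22, SE 0.07) were the 2 of 14 adaptors and kinases that passed. The niacin receptor gene Hcar2 (-1.24, SE 0.20) passed alone among 12 chemoattractant and metabolite receptors, and Cebpb (-0.60, SE 0.17) alone among 13 transcription factors. S1pr3 (0.34, SE 0.08) passed alone among 11 activation antigens and S1P receptors. Pik3cg (-0.59, SE 0.11) and Arrb1 (-0.55, SE 0.16) were lower among 8 genes of formyl peptide and Gi signalling. The medians of the 6 lists lay between -0.09 and 0.07, against -0.01 over all genes. Macrophage markers were also lower in the mutant here in 5 of 15, led by Cd14 (-0.52, SE 0.09) and Csf1r (-0.50, SE 0.05), against -3.32 for Clec4e and -3.00 for Gpr84.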

How the data were processed

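RNA was measured in 38 libraries of 28 groups. The authors deposited raw read counts per gene in 2 tables, made per the submitters' processing notes with cutadapt 1.9.1, STAR, featureCounts 1.4.6, DESeq2 and build mm10. The library kit marks strand per the labels' protocols, and the strand setting and annotation release are not given in the sources used here. Symbols from GENCODE on GRCm38 matched 45143 of 45706 genes. The genes described and all lists were chosen with earlier results of these data known.

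Counts were tested with edgeR 4.0.16 (quasi-likelihood F test, TMM, filterByExpr, Benjamini-Hochberg over all genes, threshold 0.05), fitting group means for TNF (13843 genes), a genotype term over 9 conditions (12752 genes) and an agent term over 8 pairs (12746 genes). Of the 7 genes, 5 passed the TNF filter and 4 each of the others. Fits were tested on simulated data. Named list genes were up to 4 per direction with an adjusted p below 0.05 and the largest change, and the genes most like a member were ranked by Pearson's r. Ratios of counts carry exact 95% binomial intervals. Log2 ratios of single libraries used a prior count of 2.

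The replicate numbers pair the TNF libraries within a genotype: the deviations of same-numbered libraries of different times correlated at 0.161 to 0.529 in WT (10 pairs) and 0.16 to 0.37 in the mutant (10 pairs). Between genotypes the 25 pairs gave 0.00562 to 0.338. The block within each genotype was therefore added after seeing the data, and the counts it changes are given beside the result. TNF steps were fitted for the 7 genes and are given without p-values. Replacing TMM by plain totals shifted the log2 ratios of all genes in a comparison by the same amount, the members included. In the second table the shift was -0.719 to -0.000556 for treated over untreated and -0.30 to 0.0676 between genotypes. In the TNF table it was -0.143 to -0.0307 and -0.0679 to 0.0216.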

Additional observations from a re-analysis of the deposited data

Results flagged for a closer look

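Cd69 differed between genotypes in opposite directions within the LPS course. The ratio of mutant to WT was 0.0456 at 1 h (0.0164 to 0.102) and 2.10 at 8 h (1.9 to 2.33), with 1 library on each side of each ratio, and the difference between these times was not tested.

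For Clec4d the ratio of mutant to WT was 1.15 at 1 h of LPS (1.01 to 1.31) and 0.746 at 8 h (0.664 to 0.838), both close to equal levels and both from single libraries. The difference was not tested here either.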

How the results depend on the processing

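Of the tested values of the 7 genes under the alternatives, 77 kept direction and side of the threshold, 3 newly passed, 4 no longer passed and 5 changed sign. Of their values in the TNF steps, given without a test, 3 changed sign, and of the ratios in single conditions 90 stayed within their spread and 4 moved. The 4 came with plain totals at 8 h of Poly(I:C), where the log2 ratio of mutant to WT became -3.06 for Clec4e, -0.48 for Clec4d, -2.38 for Gpr84 and -0.71 for Cd69. With the replicate block the untreated Cd69 difference became 0.054 from -0.01, and leaving out 1 library gave -3.15 to 3.15 for it, -0.92 to 0.62 for Gpr84 untreated, -0.27 to 0.42 for Clec4d untreated, and -0.57 to 0.26 (WT) and -0.81 to 1.32 (mutant) for the Cd69 step from 3 to 8 h.

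Genes passing in the untreated comparison numbered 1, against 3 with DESeq2, 740 with no filter, 958 with the replicate block, 1320 with the block within each genotype, and 0 to 2 on leaving out 1 library. For the 8 h response the count was 2882 in WT (4534 with the block within each genotype, 1764 to 2278 without 1 library) and 5826 in the mutant (4037 to 4678 without 1 library). The steps from 1 to 3 h gave 1762 in WT (2913 with the block, 3168 with it within each genotype, 896 to 1358 without 1 library) and 1042 in the mutant (2338, 2620, and 287 to 459). From 3 to 8 h they gave 759 in WT (1331 with no filter, 2001 and 2270 with the blocks, 196 to 533 without 1 library) and 2651 in the mutant (4351, 4650, and 1039 to 1994). The difference of responses at 8 h had 951 genes (1769 with no filter, 2640 and 2941 with the blocks, 338 to 975 without 1 library). LPS against Poly(I:C) had 316 (820 with DESeq2, 654 with no filter, 49 to 330 without 1 pair), and the genotype difference over 9 conditions 2024 (1625 to 2150 without 1 condition). The cause of these shifts was not tested. Fpr1 and Fpr2 were too low for any of these tests, and depth limits the untreated values of Clec4e, Gpr84, Spib and Cd69.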
